A study of Mus musculus with 8 samples.

Results

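The genes described are the Hox genes of mouse, taken as every probe set of either array type whose annotation gave exactly 1 symbol made of Hoxa, Hoxb, Hoxc or Hoxd plus a number. This rule found 46 probe sets for 33 genes, of which 38 were among the 12488 of the A chip and 8 among the 12477 of the B chip. Hox genes without such a probe set were not analysed here. Another 3 probe sets of the A chip and 1 of the B chip name a Hox gene beside a further symbol, and they were left out.

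Hox genes encode homeodomain transcription factors that give cells their position along the body axis. They lie in clusters in which the order of the genes follows the order of their expression from head to tail, so that low paralog numbers mark anterior and high ones posterior levels. In skin, fibroblasts of the dermis keep the Hox pattern of the body region they came from, and the epidermis and hair follicles express Hox genes as well. p63, encoded by Trp63, is the transcription factor on which stratified epithelia depend, and mice without it are born without a stratified epidermis and with truncated limbs.

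The series measured total RNA from whole skin of embryos at E18.5, late in gestation, from crosses of mice heterozygous for p63. The p63 null group and the wild-type group (wt in the labels) each had 2 arrays of the A chip and 2 of the B chip, 8 arrays in all. The labels give neither the mutant allele, the strain and the sex of the embryos nor the body region from which the skin was taken, which bears on genes of position. The values are MAS5 signals, linear intensities that the authors' software made from the probes of a probe set. Each chip was analysed alone, because the chips carry different probe sets and were scaled to different levels. Signals of different probe sets are given side by side and were not compared with each other. With 2 arrays a group, precision is limited by their number. The p-values set each difference against the spread between these arrays, estimated in part from the other tested probe sets of the chip.

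Trp63 read 379.3 and 347.1 with wild-type skin on the A chip and 61.9 and 46.6 with null skin, but no source used here places its probes against the mutated region. Keratinocyte markers fixed as a list had a summed A-chip signal of 43455 to 45007 in wild type and 4793 to 5415 in the null, and 13 of their 14 tested probe sets were lower. Krt5 and Krt14, defining genes of basal keratinocytes, read at most 15.9 on every A-chip array, so they checked nothing. Dermal fibroblast markers, the other main source of skin RNA, summed to 55354 to 57815 in wild type and 66218 to 79105 in the null, with 11 of 25 higher and 0 lower. Skeletal muscle markers summed to 13138 to 13413 and 28902 to 32785, with 19 of 19 higher. Adipocyte markers summed to 6456 to 6984 and 15666 to 16738 (10 of 11 higher), and endothelial ones to 3083 to 3143 and 5379 to 5898 (9 of 11 higher). Hair follicle markers summed to 4486 to 4544 and 1194 to 1317 (8 of 11 lower). The ratio of 3' to 5' beta-actin signal on the A chip was 1.63 and 1.69 for wild-type skin and 1.27 for both samples of null skin, and the CreX spike of the null array numbered 2 read 6420 against 3334 to 3837 in the others. On the B chip these ratios were 1.5 and 1.98 for wild-type skin against 1.36 and 1.33, and the spike read 32512 in the null array numbered 2 against 16966 to 18942. The part of tissue makeup, RNA quality and this array in the Hox results was not tested. In such whole-tissue samples fewer cells of a type and less RNA per cell cannot be told apart.

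Promoter sequences are shown for Hox genes with a probe set that passed the test, because they are the regulatory windows of the genes the results turn on. Of the 6 such genes, Hoxa7, Hoxb8 and Hoxd8 matched an entry of the RefSeq promoter table (GRCm38.p6), and Hoxa4, Hoxb5 and Hoxb6 did not. Each window runs from 250 bases before to 50 bases after the start and is written 5′ to 3′ on the gene's strand. Capitals mark TTTAT, the core bound by Cdx factors, which switch on Hox genes in the embryo, and TGATNNAT, a motif that Hox proteins bind together with their partner Pbx, both read on either strand. The windows are chr6:52218524-52218823 (minus strand) for Hoxa7, chr11:96281655-96281954 (plus strand) for Hoxb8 and chr2:74704365-74704664 (plus strand) for Hoxd8.
Hoxa7: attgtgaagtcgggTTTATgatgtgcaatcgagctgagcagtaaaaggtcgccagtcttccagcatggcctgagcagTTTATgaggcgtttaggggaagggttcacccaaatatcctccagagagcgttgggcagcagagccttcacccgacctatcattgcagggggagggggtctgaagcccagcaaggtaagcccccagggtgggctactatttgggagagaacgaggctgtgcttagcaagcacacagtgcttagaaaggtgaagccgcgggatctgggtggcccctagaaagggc
Hoxb8: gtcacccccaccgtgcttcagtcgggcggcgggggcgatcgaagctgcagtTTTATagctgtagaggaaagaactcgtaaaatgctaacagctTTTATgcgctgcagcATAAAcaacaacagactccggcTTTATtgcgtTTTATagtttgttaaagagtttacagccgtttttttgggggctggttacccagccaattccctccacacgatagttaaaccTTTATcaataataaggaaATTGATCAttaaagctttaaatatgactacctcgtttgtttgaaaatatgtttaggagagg
Hoxd8: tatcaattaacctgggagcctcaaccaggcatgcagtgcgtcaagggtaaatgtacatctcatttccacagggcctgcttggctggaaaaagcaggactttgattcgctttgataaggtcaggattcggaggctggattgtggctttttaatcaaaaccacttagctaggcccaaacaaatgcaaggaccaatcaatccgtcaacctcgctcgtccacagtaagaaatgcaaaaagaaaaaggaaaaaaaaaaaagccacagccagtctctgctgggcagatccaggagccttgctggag

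The Hoxa7 window held 2 matches to TTTAT, the Hoxb8 window 6 and the Hoxd8 window 0. TGATNNAT matched once in the Hoxb8 window and in neither of the others, and the matches to these motifs did not overlap. Among 32841 windows of the same length in the table, 40% held TTTAT and 8.85% held TGATNNAT. Among the 22 windows of 20 member genes the shares were 31.8% and 18.2%. AGGTCA, the core recognised by retinoic acid receptors, was in 22.7% of the Hox windows and 16.3% of all windows, and occurred in that of Hoxd8. The p53 family consensus decamer, the element that p63 binds as a pair, was in 9.09% of the Hox windows and 8.36% of all, and in 0 of the windows shown. The Hox windows had a median GC content of 58.7%, against 52.7% over all, and a median of 14.5 CpG dinucleotides against 7.0. A match describes the letters of a window only.

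Hox probe sets passed the test in both directions in p63 null skin. Those of Hoxa4 and Hoxb8 were higher in the null, and those of Hoxa7, Hoxb5, Hoxb6 and Hoxd8 lower. For Hoxd8, the A-chip set with the higher mean signal (160460_at, 581 against 549 for 93221_at) did not pass. Of the 16 Hox probe sets of the A chip with enough signal to be tested, 2 were higher in the null and 4 lower by limma with Benjamini-Hochberg adjustment over all tested probe sets at a threshold of 0.05. That is 37.5% of them, beside 44.3% of the 7453 probe sets tested on the chip, 22.1% higher and 22.2% lower. The count of 6 became 3 with no filter, 2 with the filter at the 60th percentile and 3 without wild-type replicate 2. On the B chip 0 of 6 passed in limma, beside 29.4% of 7446, and 0 had an unadjusted p under 0.05. The median difference between null and wild type was -0.07 over the Hox probe sets of the A chip, against 0.02 over all tested, and 0.14 against 0.04 on the B chip. The median size of the difference, whatever its sign, was 0.482 over the Hox probe sets of the A chip against 0.399 over all tested, and 0.142 against 0.369 on the B chip. Differences are null minus wild type on the log2(signal + offset) scale, with 12.9 as the A-chip offset and 54.3 as that of the B chip, which understates the change of low signals. Only Hoxa7 differed at least 2-fold on this scale and passed, whereas 13.5% of all tested probe sets of the A chip did both. Groups did not overlap for 11 of the 16 A-chip probe sets (68.8%, beside 73.9% of all) and for 3 of the 6 on the B chip (50%, beside 67.7%). A probe set was tested when its mean log2 value was above the 40th percentile of its chip, which corresponds to a A-chip signal of about 54.0 and a B-chip signal of about 167.

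**Figure D1:**
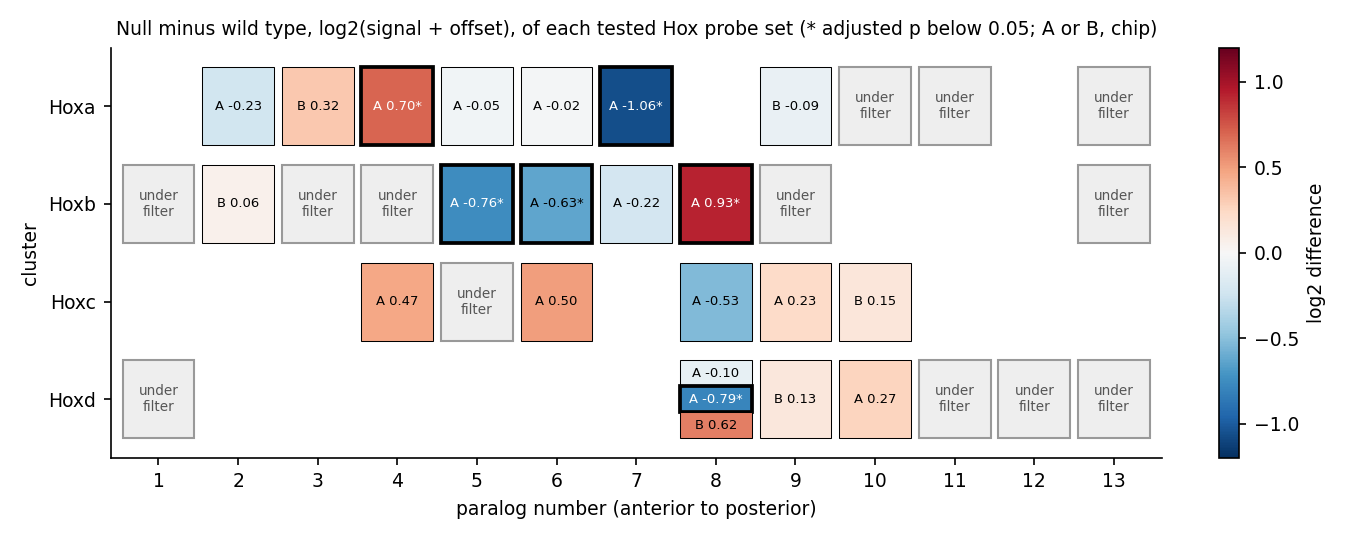
Map of the Hox genes by cluster (rows) and paralog number (columns, anterior to posterior), with the log2 difference between null and wild type for each tested probe set, blue for lower and red for higher in the null. Asterisks and heavy frames mark the 6 probe sets with an adjusted p below 0.05, all from the A chip and all of paralogs 4 to 8; grey boxes had signals too low for testing, and positions without a probe set by the rule are blank.

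The 6 changed probe sets all belonged to paralogs 4 to 8, the genes of the neck and trunk. They went in both directions within the Hoxa and Hoxb clusters. Of the 16 tested Hox probe sets of the A chip, 13 were of these paralogs. Of the 13, 2 were higher and 4 lower, or 46.2% beside 44.3% of all tested probe sets of that chip. For the same chip, paralogs 1 to 3 had 1 tested probe set and paralogs 9 to 13 had 2. Of these, 0 passed in limma and 0 had an unadjusted p under 0.05. The B chip added 2 tested sets of paralogs 1 to 3, 1 of paralogs 4 to 8 and 3 of paralogs 9 to 13. Among them, too, 0 passed in limma and 0 had an unadjusted p under 0.05. Each chip was analysed alone, and each had too few tested sets to compare levels of the axis. By cluster on the A chip, 1 higher and 1 lower of 5 were Hoxa, and 1 higher and 2 lower of 4 were Hoxb. Hoxc had 0 of 4 (1 with an unadjusted p under 0.05 in limma) and Hoxd 1 lower of 3. These are 40%, 75%, 0% and 33.3% of the tested sets, beside the same 44.3%. The median differences of the clusters were -0.05, -0.42, 0.35 and -0.10 in that order, and no test of a difference between clusters was made.

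**Figure D2:**
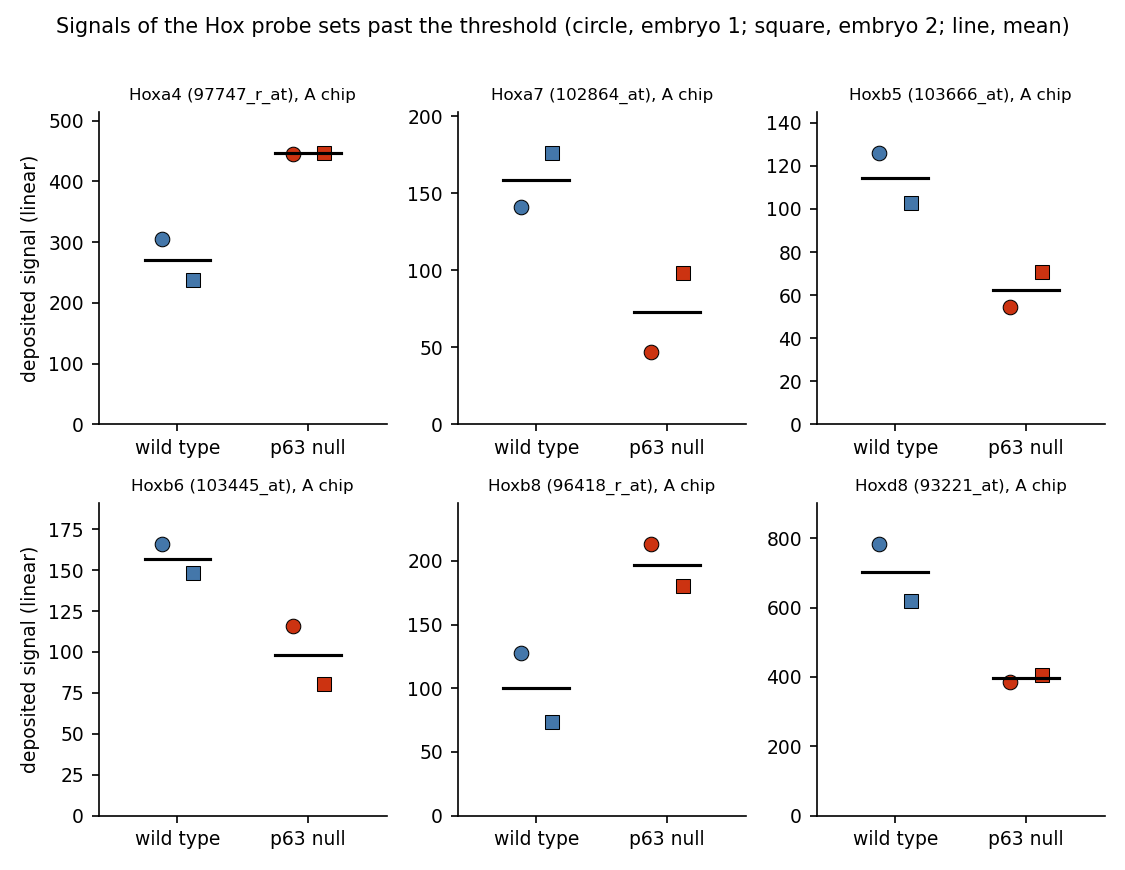
Deposited signals (linear, vertical axis from 0) of the 6 Hox probe sets past the threshold, for 2 wild-type (blue) and 2 null embryos (red), with a line at each group mean. In every panel both null values lie on one side of both wild-type values; Hoxa4 and Hoxb8 are higher in the null, and Hoxa7, Hoxb5, Hoxb6 and Hoxd8 are lower.

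In the Hoxa cluster the tested anterior genes, Hoxa2 and Hoxa3, did not pass. Hoxa2, which gives the branchial arches their identity, read 80.9 and 75.7 in wild-type skin and 62.5 and 67.6 in null skin. The null values lay just below the wild-type ones, and the difference of -0.23 (SE 0.20) did not pass (limma adjusted p = 0.395). Hoxa3, a gene of thymus and parathyroid formation, read 161.5 and 147.1 in wild-type skin and 175.2 and 242.4 in null skin on the B chip (0.32, SE 0.26, limma adjusted p = 0.372). The wild-type mean of this set, 154.3, lay under the B-chip level for testing of about 167, so it entered the test through the null arrays. On the A chip the probe set of Hoxa3 was under the level for testing, at 30.6 to 35.6 in all arrays.

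Hoxa4, a gene of the neck vertebrae, rose on 1 of its 4 probe sets. The set 97747_r_at read 305.3 and 237.5 in wild-type skin and 445.5 and 447.1 in null skin, so the groups did not overlap. The difference was 0.70 (SE 0.15, limma adjusted p = 0.00523), and the 95% interval ran from 0.36 to 1.04. The suffix r marks a probe set for which the maker relaxed its rules of probe choice. The other 3 sets were under the level for testing. Of these 97745_at read 10.3 and 51.0 in wild-type skin and 118.9 and 79.0 in null skin, with no overlap, while 162402_r_at read 19.9 to 43.2 and 97746_f_at 0.5 to 10.4, with overlapping groups.

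Hoxa5 and Hoxa6, the next genes of the cluster, did not differ beyond their spread. Hoxa5, which patterns the lung and the border of neck and thorax, read 67.2 and 54.3 in wild-type skin and 64.1 and 52.7 in null skin. Its difference of -0.05 had a 95% interval from -0.56 to 0.47. The tested probe set of Hoxa6 read 48.6 and 65.5 against 57.2 and 53.6, a difference of -0.02 with an interval from -0.55 to 0.50. The signs of Hoxa5 and Hoxa6 turned when single arrays were left out, so no direction can be given.

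Hoxa7, a trunk gene that keratinocytes express as well, had the largest difference of the 22 tested Hox probe sets. It fell from 140.8 and 176.2 in the wild-type arrays to 47.2 and 98.2 in the null arrays, and all wild-type values were above all null values. The difference was -1.06 (SE 0.28, limma adjusted p = 0.0142), with a 95% interval from -1.70 to -0.42. The null arrays lay further from each other than the higher of them lay from the nearer wild-type array. Leaving out wild-type replicate 2 ended the call (limma adjusted p = 0.0623), as did no filter (0.0586), and the difference was -0.62 without null replicate 1 (adjusted p = 0.0369) and -1.51 without null replicate 2. Without null replicate 1, Hoxb6, Hoxb8, Hoxc8, Hoxd8 93221_at and Hoxa4 differed by more than Hoxa7, so its rank rests on that array.

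Hoxa9, known for its part in blood-forming cells and in the posterior trunk, read 721.6 and 805.2 in wild-type skin and 572.7 and 883.2 in null skin on the B chip. The null values enclosed the wild-type ones (difference -0.09, SE 0.21, limma adjusted p = 0.777). On the A chip its signals of 31.4 to 59.1 were too low for testing, as were those of Hoxa10 (25.3 to 40), Hoxa11 (29.2 to 42.2) and Hoxa13 (3.1 to 5.0), genes of the lumbar level, the limbs and the digits.

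In the Hoxb cluster the neighbouring genes Hoxb5 and Hoxb6 both fell. Hoxb5, a gene of lung, gut nerves and shoulder position, read 126.0 and 102.6 in wild-type skin and 54.4 and 70.6 in null skin, without overlap. The difference was -0.76 (SE 0.22, limma adjusted p = 0.0190). Hoxb6, a gene of the thoracic level and the body wall, read 165.9 and 148.2 in wild-type skin and 115.9 and 80.5 in null skin, also without overlap. Its difference was -0.63 (SE 0.21, limma adjusted p = 0.0335). Hoxb5 no longer passed with null replicate 1 left out (adjusted p = 0.0636), nor with wild-type replicate 1 left out (0.107), nor with no filter (0.0590). That for Hoxb6 was lost without null replicate 2 (-0.40, adjusted p = 0.156), wild-type replicate 1 (0.130) or wild-type replicate 2 (0.0700), and with no filter (0.0839).

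Hoxb7, the next gene, read 177.5 and 164.9 in wild-type skin and 153.9 and 136.9 in null skin. The null values were all below the wild-type ones, but the difference of -0.22 (SE 0.17) did not pass (limma adjusted p = 0.309). Its 95% interval ran from -0.59 to 0.15.

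Hoxb8, which controls the development of some myeloid and microglial cells, gave opposite pictures on its 2 probe sets. The set 96418_r_at rose from 127.6 and 73.2 in wild-type skin to 213.3 and 180.0 in null skin, a difference of 0.93 (SE 0.24, limma adjusted p = 0.0124). Its suffix r marks relaxed rules of probe choice, as for the called set of Hoxa4, so both called rises rest on such sets. The set 96417_s_at, whose suffix marks probes shared by several transcripts, read 14.1 and 17.7 in wild-type skin and 8.9 and 6.1 in null skin. Its null values were lower, but its signals were near the offset and too low for testing. Without wild-type replicate 2 the rise of 96418_r_at was 0.57 and did not pass (adjusted p = 0.0824). Leukocyte markers were higher in the null beside this, in 11 of 12 tested probe sets, against 22.1% of all tested on the A chip. The summed signal of these markers was 4111 to 4392 in wild type and 10472 to 11279 in the null. Their part in the Hoxb8 signal was not tested.

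Hoxb2, a hindbrain gene, read 1615.0 and 1222.5 in wild-type skin and 1397.5 and 1551.8 in null skin on the B chip. The groups overlapped (difference 0.06, SE 0.16, limma adjusted p = 0.795), and the 95% interval from -0.32 to 0.45 was narrower than that of Hoxa7. The other Hoxb genes, Hoxb1, Hoxb3, Hoxb4, Hoxb9 and Hoxb13, were too low for testing, with signals between 1.7 and 56.7.

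**Figure D3:**
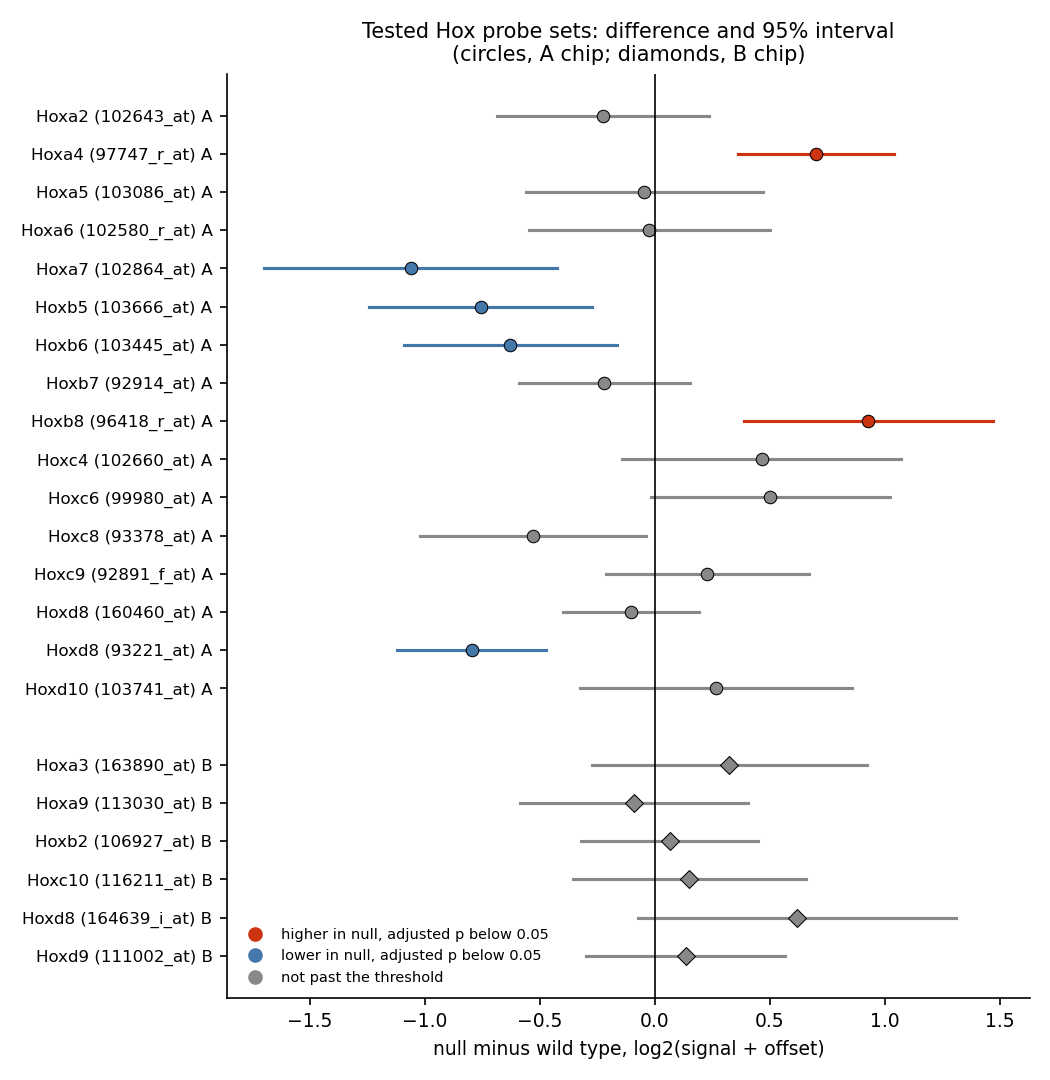
Difference between null and wild type (horizontal axis, log2(signal + offset)) with its 95% interval for the 22 tested Hox probe sets, by chip, cluster and paralog number. Coloured points passed the adjusted threshold of 0.05; most intervals cross 0, and all points lie between -1.06 and 0.93.

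In the Hoxc cluster 0 of 4 tested probe sets of the A chip passed in limma, and 1 of them, Hoxc8, had an unadjusted p under 0.05. Hoxc4 read 68.1 and 38.4 in wild-type skin and 86.0 and 67.2 in null skin, and its groups overlapped (0.47, SE 0.27, limma adjusted p = 0.190). Its wild-type mean of 53.25 lay under the level for testing of about 54.0, so it entered the test through the null arrays. Hoxc6, a gene of the upper thorax and of mammary skin, read 80.8 and 62.5 in wild-type skin and 126.0 and 88.7 in null skin. These groups did not overlap, and the difference of 0.50 (SE 0.23) had a limma adjusted p of 0.108. It was 0.73 without null replicate 2 (adjusted p = 0.0407), 0.27 without null replicate 1 (0.448) and 0.34 without wild-type replicate 2 (0.396).

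Hoxc5, which lies between Hoxc4 and Hoxc6, had 3 probe sets, none with enough mean signal to be tested. On the A chip it read 11.5 and 24.9 in wild-type skin and 44.4 and 41.5 in null skin. On the B chip the set 163886_at read 39.5 and 51.1 in wild-type skin and 221.0 and 241.4 in null skin, and the set 164559_at 27.5 and 72.7 against 154.2 and 124.4. In every set both null values were above both wild-type values. Beside this, 31.3% of the untested probe sets of the A chip and 28.1% of those of the B chip had null values above both wild-type values.

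When all probe sets were tested, with no filter, 163886_at of Hoxc5 passed with a difference of 1.52 (SE 0.26, limma adjusted p = 0.0166), beside 6.60% of the 12411 probe sets of the B chip that were higher under this setting. The difference of 164559_at was 0.92 (limma adjusted p = 0.107), and that of the A-chip set 0.88 (adjusted p = 0.0745). Leaving out wild-type replicate 1 (adjusted p = 0.119) or wild-type replicate 2 (0.0953) ended the call for 163886_at. The arrays of both chips may come from the same embryos, so the chips are not independent samples of the genotypes.

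**Figure D4:**
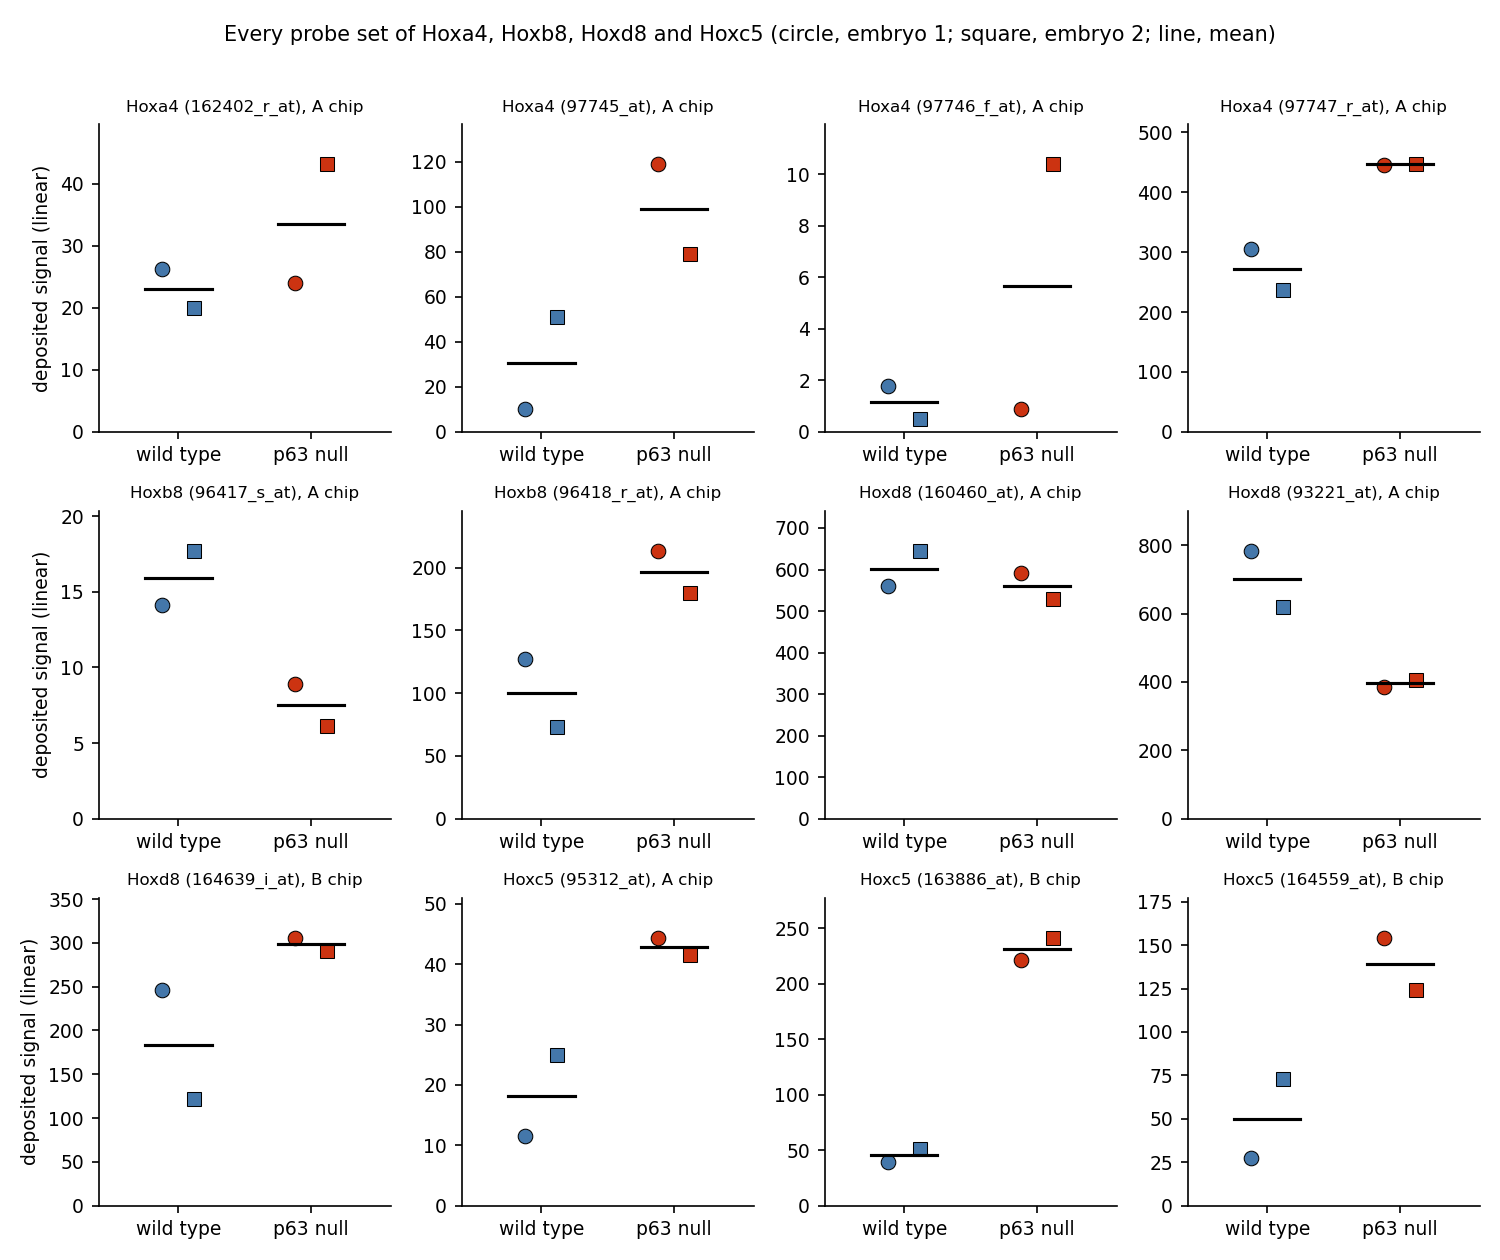
Deposited signals (linear, vertical axis from 0, own scale in each panel) of every probe set of Hoxa4, Hoxb8, Hoxd8 and Hoxc5 in wild-type (blue) and null (red) arrays, with a line at each group mean. All 3 Hoxc5 panels have both null values above both wild-type values, whereas the panels of Hoxb8 and of Hoxd8 differ in direction.

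Hoxc8, a gene of the thoracic trunk, read 139.6 and 137.5 in wild-type skin and 114.1 and 73.9 in null skin. The null values were both lower, with a difference of -0.53 (SE 0.22, limma adjusted p = 0.0769) that passed without null replicate 1 (-0.80, adjusted p = 0.0106) and shrank without null replicate 2 (-0.25, adjusted p = 0.377). Hoxc9 read 76.2 and 73.8 in wild-type skin and 94.1 and 86.1 in null skin, a difference of 0.23 (SE 0.20, limma adjusted p = 0.373), on a probe set whose suffix f marks a gene family. Hoxc10, a gene of the lumbar level, read 394.3 and 572.4 against 594.9 and 478.7 on the B chip, with overlapping groups (0.15, SE 0.22, limma adjusted p = 0.633).

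In the Hoxd cluster the probe sets of Hoxd8, a trunk gene, did not show the same difference. On the A chip 93221_at fell from 783.4 and 619.4 in wild-type skin to 386.0 and 407.1 in null skin, with no overlap, by 0.79 on the log2 scale (SE 0.14, limma adjusted p = 0.00199). The other A-chip set, 160460_at, read 559.8 and 644.9 in wild-type skin and 590.7 and 528.6 in null skin, with overlapping groups and a difference of -0.10 (SE 0.13, limma adjusted p = 0.554). The 95% intervals of these sets, from -1.12 to -0.47 and from -0.40 to 0.19, did not overlap. On the B chip 164639_i_at read 246.7 and 121.2 in wild-type skin and 305.8 and 290.8 in null skin (0.62, SE 0.30, limma adjusted p = 0.154). Which transcripts of Hoxd8 each set detects is not stated in any source used here.

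Hoxd9 and Hoxd10, genes of the hindlimb and lumbar level, did not pass. Hoxd9 read 396.2 and 331.6 in wild-type skin and 397.7 and 408.7 in null skin on the B chip (0.13, SE 0.18, limma adjusted p = 0.617). Its A-chip set was too low for testing and went the other way, at 45.9 and 39.1 in wild-type skin and 16.4 and 25.4 in null skin. Hoxd10 read 48.2 and 78.3 against 90.4 and 65.2, with overlapping groups (0.27, SE 0.26, limma adjusted p = 0.434).

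Several posterior Hox genes had signals too low for testing in both genotypes. On the A chip 10 of 12 probe sets of paralogs 9 to 13 were under that level, while on the B chip all 3, those of Hoxa9, Hoxc10 and Hoxd9, were above it. Probe sets differ in how well they bind, so these counts do not rank the genes by expression. Hoxd13, which shapes digits and genitalia, read 4.7 to 5.5 in all arrays, Hoxd12 2.0 to 10.2, Hoxd11 6.0 to 10.6 and Hoxb13 13.4 to 26.1. Hoxd1, at the other end of its cluster, read 1.4 to 10.1 over its 2 probe sets, with both null values above both wild-type ones in each. Detection calls were not used here, so these values are levels and not calls of presence or absence. In all, 22 A-chip and 2 B-chip Hox probe sets were not tested, and 13 of the 33 genes had no tested probe set. Of the 22 on the A chip, null values were above both wild-type ones for 8 and below them for 3, beside 31.3% and 15.9% of all untested probe sets of that chip.

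Genes with several probe sets were mostly divided. Of the 9 Hox genes with more than 1 probe set over both chips, Hoxc5 and Hoxd1 had null values above both wild-type values in every set. No set of these genes was tested, and those of Hoxd1, at 1.4 to 10.1, lay under the A-chip offset of 12.9. Hoxb8, Hoxd8 and Hoxd9 had sets in opposite directions without overlap, and Hoxa3, Hoxa4, Hoxa6 and Hoxa9 had at least 1 set with overlapping groups. Among the opposed sets, Hoxb8 96417_s_at (6.1 to 17.7) and Hoxd9 99426_at (16.4 to 45.9) were too low for testing. Groups did not overlap for 73.9% of all tested probe sets of the A chip and 67.7% of the B chip. For untested sets, null values were above both wild-type ones in 31.3% (A chip) and 28.1% (B chip), and below them in 15.9% (A chip). No gene among the 9 had more than 1 probe set that passed in limma. Hoxa7, Hoxb5 and Hoxb6, the other genes with a set that passed, had 1 probe set each.

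Among the cofactors that bind DNA beside Hox proteins, 1 probe set of Pknox1 and 1 of Pknox2 passed, both higher in the null. Of 5 tested A-chip probe sets for Pbx and Pknox genes 1 was higher and 0 lower, beside 22.1% higher over all of the A chip. Of 3 on the B chip, all for Pknox genes, 1 was higher and 0 lower, beside 14.5% higher over that chip. The sets of Meis1, Meis2 and Meis3 were too low for testing. Pknox1 rose from 115.5 and 120.5 in wild-type skin to 198.8 and 166.7 in null skin (0.58, limma adjusted p = 0.0238), but on the B chip its 2 sets differed by -0.06 and -0.05. Pknox2 rose from 275.2 and 172.8 to 546.6 and 417.6 (0.96, limma adjusted p = 0.0263). With no filter neither Pknox1 (limma adjusted p = 0.0522) nor Pknox2 (0.0648) passed. Both calls were lost when single arrays were left out, with adjusted p-values of up to 0.100 for Pknox1 (without null replicate 1) and 0.144 for Pknox2 (without wild-type replicate 2). The 3 tested sets of Pbx3, a Hox partner, had differences of 0.06, -0.42 and -0.22, and that of Pbx2 was 0.00, none of which passed.

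Polycomb and trithorax proteins keep Hox clusters silent or active, and the tested transcripts of the list that changed on the A chip fell. Of 24 tested probe sets 9 were lower and 0 higher, 1 of the 9 being that of the insulator protein Ctcf, which belongs to neither group (-0.67, limma adjusted p = 0.00636). These counts stand beside 22.2% lower and 22.1% higher on the chip, and the median difference of the list was -0.33. Rnf2, a ubiquitin ligase of polycomb complex PRC1, fell from 171.9 and 136.0 in wild-type skin to 63.4 and 40.1 in null skin (-1.38, limma adjusted p = 0.00151), while another of its sets had a difference of -0.31 (adjusted p = 0.177). The null means of this set (51.8) and of the Suz12 set counted among the 9 (48.4) lay under the level for testing of about 54.0, so both entered the test through the wild-type arrays. Cbx2, a PRC1 subunit that binds chromatin, fell from 205.6 and 210.9 to 73.1 and 80.0 (-1.31, limma adjusted p = 0.000346). Bmi1, the PRC1 core subunit, fell from 716.1 and 877.1 to 399.9 and 387.2 (-0.99, limma adjusted p = 0.000433). Ash2l, a subunit of trithorax methyltransferases, fell by 0.96 (limma adjusted p = 0.0271), a call lost without null replicate 2 (-0.47, adjusted p = 0.122), wild-type replicate 1 (0.0522) or wild-type replicate 2 (0.0606).

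On the B chip 1 of 9 tested probe sets of this list was higher and 2 lower, beside 14.5% and 14.9% of the chip. Kdm6b, a demethylase that removes the polycomb mark, rose from 219.7 and 213.7 in wild-type skin to 466.9 and 854.8 in null skin (1.34, limma adjusted p = 0.0107). The methyltransferase Kmt2d (-0.55, adjusted p = 0.0339) and the PRC1 subunit Phc3 (-0.45, adjusted p = 0.0423) fell. Leaving out wild-type replicate 1 ended both calls (0.187 and 0.268), as did leaving out wild-type replicate 2 (0.126 and 0.111). Without null replicate 2 that of Kmt2d was lost (0.0686), and without null replicate 1 that of Phc3 (0.0602). The fall of keratinocyte markers, from a summed signal of at least 43455 to at most 5415, ran beside the fall of this list, and its part was not tested.

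Factors and signals that set Hox expression in the embryo were mostly too low to test. On the A chip 1 of 11 probe sets was tested, that of Egr2, a hindbrain factor that is also induced by growth signals, which fell by 0.64 (limma adjusted p = 0.0227, and 0.114 without wild-type replicate 1 or 0.0844 without null replicate 1). Over the whole A chip 22.2% were lower. On the B chip 1 of 3 was higher and 0 lower, or 33.3% beside 29.4% of that chip, so these counts are near the background or rest on 1 probe set. Rara, a receptor for retinoic acid, rose from 2729.7 and 3314.0 in wild-type skin to 4358.4 and 5351.9 in null skin (0.67, limma adjusted p = 0.0163, and 0.104 without wild-type replicate 1). Another of its sets there had a difference of 0.54 that did not pass (adjusted p = 0.113).

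Other transcription factors of limb and body wall position went both ways. Of 13 tested A-chip probe sets 3 were higher and 1 lower, or 30.8% beside 44.3% of that chip. Of 4 tested on the B chip 1 was lower, or 25% beside 29.4%. Sets under the level for testing are not in these counts, and they too went both ways. Among them Msx2, also in the hair follicle list, read 95.6 and 90.1 in wild-type skin and 5.9 and 4.8 in null skin (-2.535). A set of Shox2 read 40.8 and 24.2 in wild-type skin and 47.6 and 62.0 in null skin (0.59). En1, a factor of ventral skin and of the dermis, read 158.8 and 172.5 in wild-type skin and 250.6 and 259.0 in null skin (0.59, limma adjusted p = 0.0120). The somite factors Meox1 (0.66, adjusted p = 0.0365) and Meox2 (0.42, adjusted p = 0.0267) rose, and the mesenchymal factor Prrx1 fell by 0.62 (adjusted p = 0.0337), although its B-chip sets had differences of -0.19 and -0.37 that did not pass. Hand2, a limb and flank factor, fell on the B chip by 0.67 (adjusted p = 0.0244). These 5 calls were lost without wild-type replicate 1, with adjusted p-values between 0.0635 and 0.199. Without null replicate 2 those of Meox1 (0.180), Meox2 (0.0586) and Prrx1 (0.109) were lost, and without wild-type replicate 2 those of Meox1 (0.131), Meox2 (0.139) and Hand2 (0.0699). Meox1 read 49.6 and 45.9 in wild-type skin, under the level for testing, and entered the test through the null arrays (74.3 and 91.8). With no filter its call was lost (adjusted p = 0.0905), as was that of Prrx1 (0.0844). Pitx1, a hindlimb factor, and Tbx5, a forelimb factor, did not pass, with differences of -0.11 (A chip, adjusted p = 0.642) and -0.26 (B chip, adjusted p = 0.514).

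**Figure D5:**
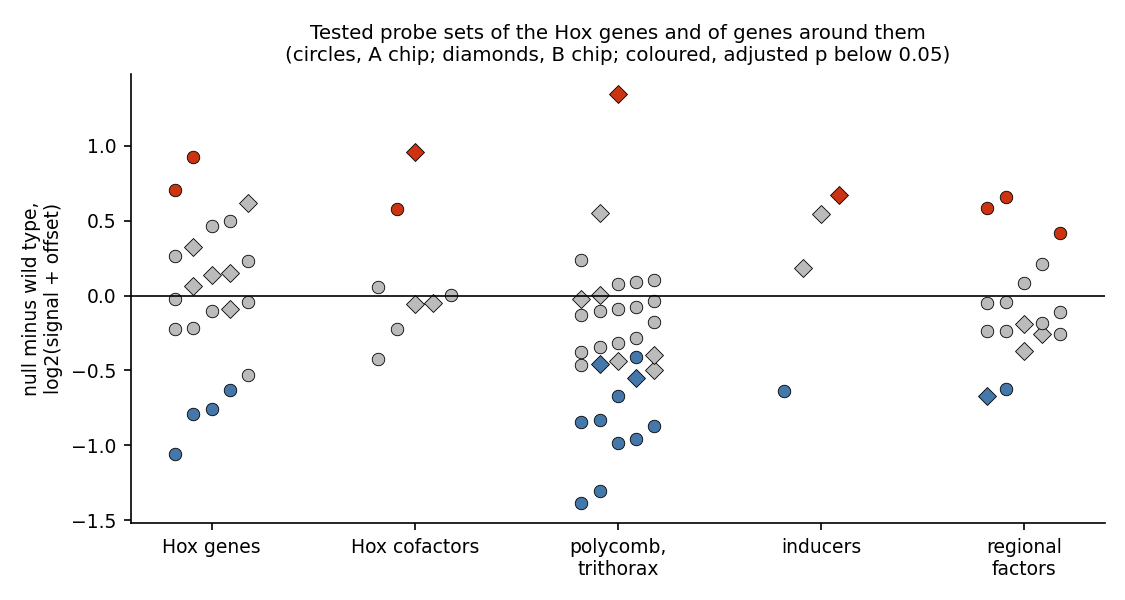
Differences between null and wild type (vertical axis, log2(signal + offset)) of all tested probe sets of the Hox genes, Hox cofactors, polycomb and trithorax genes, inducers of Hox expression and regional factors. Circles are A-chip and diamonds B-chip probe sets, and colour marks an adjusted p below 0.05; Hox points spread to both sides of 0, whereas all coloured circles of the polycomb and trithorax list lie below it.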

How the data were processed

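Each chip held 2 p63 null and 2 wild-type samples of whole skin RNA. Per the labels, total RNA from TriZol and RNeasy carried a biotin label. The deposited values are linear intensities per probe set, made by the authors with MAS5 per the submitters' processing notes (version not given in the sources used here), and were already scaled, with 2% trimmed means of 250.1 to 250.2 (A chip) and 500.1 (B chip). Arrays were rescaled to the same trimmed mean, the 20th percentile signal was added, and log2 was taken. Control probe sets, 66 per chip, were not used. limma 3.58.1 (R 4.3.3; lmFit, eBayes with trend, two-sided) compared null with wild type over probe sets above the 40th percentile, with Benjamini-Hochberg adjustment per chip, and was tested on simulated data. Groups came from the sample titles. Replicate numbers were not used as pairs.

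Gene names come from the platform's annotation, which may be dated, checked against RefSeq (0 symbols updated). Probe sets of related genes can cross-hybridise. The members and gene lists were chosen with earlier results of these data known. All tested Hox probe sets are named, and from the other lists up to 4 changed genes per direction, list and chip. Pbx2, Pbx3, Ctcf, Suz12, Pitx1, Tbx5, Msx2 and Shox2 were named after their values were seen. The 12 alternatives are described at the end; that of Hoxc5 without the filter, alone and with the others, was added after seeing the data.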

Additional observations from a re-analysis of the deposited data

How the results depend on the processing

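Of 12 alternatives, Hoxa4 97747_r_at and Hoxd8 93221_at kept their calls in all. Over 278 checks of single Hox probe sets, 256 kept direction and side of the threshold, 12 lost a call, 2 gained one and 8 changed sign. The 8, none of them called, came from leaving out 1 array, with ranges of -0.17 to 0.081 for Hoxa5, -0.20 to 0.014 for Hoxa6, -0.022 to 0.55 for Hoxd10, -0.38 to 0.20 for Hoxa9, -0.13 to 0.26 for Hoxb2 and -0.091 to 0.39 for Hoxc10. Over 256 checks of all called probe sets of the 4 other lists and of Trp63, 209 kept their call and 47 lost it. With no filter the calls on the A chip numbered 3 for Hox genes, 0 for cofactors and 0 for inducers, and on the B chip 1, which was Hoxc5, for Hox genes, 0 for cofactors and 1 for polycomb and trithorax genes. With the filter at the 60th percentile they numbered 2 for Hox genes, 5 for polycomb and trithorax genes and 2 for regional factors on the A chip, and 0 for cofactors on the B chip. With no variance trend, 1 polycomb or trithorax probe set passed on the B chip. Leaving out 1 array at a time gave 2127 to 3376 calls over all A-chip probe sets and 1119 to 2598 on the B chip. It gave 3 to 6 for Hox genes, 0 to 1 for cofactors, 6 to 10 for polycomb and trithorax genes, 0 to 1 for inducers and 0 to 4 for regional factors of the A chip. For the B chip it gave 0 for Hox genes, 0 to 1 for cofactors, 1 to 3 for polycomb and trithorax genes, 0 to 1 for inducers and 0 to 2 for regional factors. With the replicate number as a block, 3368 probe sets passed on the A chip, 6 of them Hox, and 2411 on the B chip, 0 of them Hox. Same-numbered arrays did not deviate together (r = 0.0389 and -0.0465). With 2 arrays a group this cannot exclude a pairing, and the labels state none. The cause of these shifts was not tested. Low signals limit the 24 untested Hox probe sets.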
